A study of Mus musculus with 6 samples.

Results

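Lysosomal, autophagy and mitophagy genes were described as a list of 41 mouse genes that includes Grn, which encodes progranulin, and Pink1, which encodes the kinase that marks damaged mitochondria. The members were chosen by gene name and followed in all 3 lines of the study through their FPKM (fragments per kilobase of transcript, scaled to the mapped fragments of a library, and so a level per length). Of the 41 genes, 40 had values in both deposited tables, among 14667 genes in either table, and 39 reached the mean of 1 FPKM that was required for testing. Hexa is not analysed here, and Tfeb stayed below that mean. The list was proposed with results of these data in view, so the FPKM of all 3 lines count as values that chose it, and the members' differences are a description with no p-values.

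Lysosomes are acidic organelles in which cathepsins, glycosidases and other hydrolases break down macromolecules, and a proton pump, the V-ATPase, keeps their lumen acidic. Autophagy delivers cytoplasm and organelles to them in vesicles coated with lipid-linked ATG8 proteins, and mitophagy, started by PINK1 and Parkin, does so for damaged mitochondria. TFEB and TFE3 are transcription factors that activate many of these genes through a variant of the E-box, and mTORC1, a nutrient-sensing kinase complex on the lysosome, keeps them out of the nucleus.

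RNA was measured by poly(A) RNA-seq in 6 libraries of NE-4C, a mouse neural stem cell line deficient in p53. All lines lacked H3f3a, a gene for the histone variant H3.3, and stably expressed an HA-tagged H3.3 in its place. In Cbfa2t2_KO the tagged H3.3 was wild type and Cbfa2t2, which encodes a corepressor, was knocked out as well. H3.3K27M expressed a mutant in which methionine takes the place of lysine 27, and H3.3WT expressed wild-type H3.3 with Cbfa2t2 left in place. Each group had 2 libraries. The labels do not say whether they came from separate cultures or how many clones each line represents, so the p-values here cover the spread among these libraries alone, and that spread may be technical. In bulk RNA, fewer cells of a type and less RNA per cell cannot be told apart.

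The tables held 14431 and 14318 genes, the H3.3WT values were the same in both for all 14082 shared genes, and the read depth is unknown. Cbfa2t2 itself stood at 1.02 and 0.769 FPKM in Cbfa2t2_KO, against 1.38 and 1.35 FPKM in H3.3WT, a low level at which the groups did not overlap but limma's test was not passed (adjusted p = 0.15). H3f3a was still listed, at 82.1 and 66.3 FPKM in Cbfa2t2_KO, 77.3 and 66.8 FPKM in H3.3K27M and 131 and 181 FPKM in H3.3WT, below H3.3WT with adjusted p = 0.005 for Cbfa2t2_KO and 0.0071 for H3.3K27M by limma, and whether these reads came from the tagged H3.3 was not tested. Of 12 neural stem markers, 10 had values in both tables, among them Sox2, Sox3 and Nes, while Sox1 and Fabp7 had none. Their summed level ran from 140 to 147 FPKM in Cbfa2t2_KO, from 164 to 176 in H3.3K27M and from 208 to 217 in H3.3WT. Single markers of this list differed in both directions: Sox3 had 47.4 and 54.2 FPKM in Cbfa2t2_KO and 92.9 and 88.9 FPKM in H3.3WT, and Vim had 27.3 and 26.5 FPKM in Cbfa2t2_KO and 10.3 and 12.2 FPKM in H3.3WT. Summed levels of 4 neuronal markers, most of it Tubb3, ran from 134 to 150 FPKM in Cbfa2t2_KO, from 76.8 to 81.4 in H3.3K27M and from 76.5 to 77.6 in H3.3WT. Stmn2 was also higher in Cbfa2t2_KO than in H3.3WT, and Syt1 overlapped between them. Rbfox3 went the other way, with 1.18 and 1.14 FPKM in Cbfa2t2_KO and 1.83 and 1.64 FPKM in H3.3WT. Of 13 microglia and macrophage markers, cells rich in lysosomes, 2 had values, Cd68 and Tmem119, and their sum ran from 4.97 to 5.72 FPKM in Cbfa2t2_KO, from 3.99 to 4.76 in H3.3K27M and from 4.03 to 4.73 in H3.3WT. The sum hides opposite differences: Cd68, itself a lysosomal protein gene, had 3.82 and 4.37 FPKM in Cbfa2t2_KO, 2.53 and 2.60 FPKM in H3.3K27M and 1.24 and 1.18 FPKM in H3.3WT. Tmem119 had 1.15 and 1.35 FPKM in Cbfa2t2_KO, 1.46 and 2.16 FPKM in H3.3K27M and 3.48 and 2.85 FPKM in H3.3WT. The part of any marker list in the results that follow was not tested.

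The promoter windows of 4 members on which the results turn are printed with the E-boxes found in them. RefSeq windows of GRCm38.p6, from 250 bases before to 50 after a start site, were found for 36 of the 41 members and not for Ctsb, Atp6v1b2, Atp6v1h, Map1lc3a and Becn1. Ctsa and Gaa, which encode cathepsin A and acid alpha-glucosidase, differed most between Cbfa2t2_KO and H3.3WT together with Wipi1, and Grn and Pink1 were higher in Cbfa2t2_KO and lower in H3.3K27M than in H3.3WT. Ctsa is shown at chr2:164833523-164833822, the second of its windows, on the forward strand, Gaa at chr11:119267713-119268012 and Grn at chr11:102430257-102430556, also forward, and Pink1 at chr4:138326247-138326546 on the reverse strand. Each sequence runs 5′ to 3′ on the gene's strand, and capitals mark CACGTG, extended outward as far as it stays palindromic.
Ctsa: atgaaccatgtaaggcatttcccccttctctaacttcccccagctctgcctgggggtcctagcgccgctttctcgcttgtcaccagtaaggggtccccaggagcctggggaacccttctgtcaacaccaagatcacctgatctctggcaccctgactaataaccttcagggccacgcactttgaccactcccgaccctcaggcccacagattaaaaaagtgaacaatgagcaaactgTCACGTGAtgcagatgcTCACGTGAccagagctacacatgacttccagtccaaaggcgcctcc
Gaa: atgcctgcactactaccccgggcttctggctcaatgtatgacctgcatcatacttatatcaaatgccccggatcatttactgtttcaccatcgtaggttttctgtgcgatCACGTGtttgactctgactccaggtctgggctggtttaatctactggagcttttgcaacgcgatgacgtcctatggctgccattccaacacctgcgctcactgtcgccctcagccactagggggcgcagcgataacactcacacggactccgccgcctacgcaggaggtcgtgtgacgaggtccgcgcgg
Grn: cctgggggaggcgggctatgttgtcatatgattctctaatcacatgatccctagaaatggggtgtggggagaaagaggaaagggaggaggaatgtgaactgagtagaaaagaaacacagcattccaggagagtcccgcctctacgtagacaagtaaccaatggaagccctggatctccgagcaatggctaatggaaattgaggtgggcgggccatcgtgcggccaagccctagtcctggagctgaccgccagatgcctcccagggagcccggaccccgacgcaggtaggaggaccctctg
Pink1: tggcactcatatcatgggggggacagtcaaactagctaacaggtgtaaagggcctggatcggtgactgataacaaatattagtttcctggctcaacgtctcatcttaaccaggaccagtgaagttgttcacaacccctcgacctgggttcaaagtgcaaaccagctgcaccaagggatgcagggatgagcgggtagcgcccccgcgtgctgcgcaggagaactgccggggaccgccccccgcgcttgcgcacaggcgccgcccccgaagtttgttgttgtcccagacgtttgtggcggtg

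In the printed window, Ctsa held the E-box flanked as TCACGTGA at 2 places, with CACGTG beginning 12 bases before and 5 after that start site. Its other window, at chr2:164832622-164832921, held no CACGTG. Gaa held 1 CACGTG beginning 140 bases before its start site, and the letters CACGTG were not in these windows of Grn and Pink1. The window of Wipi1, which is not printed, held none either. The search covered CACGTG, TCACGTGA and the CLEAR decamer, which extends TCACGTGA by 1 base on each side; all of them read the same on both strands, and each longer one contains the shorter. CACGTG was found in 13 of 34 tested members with a window (38.2%), in 9 of 32 other lysosomal genes (28.1%) and in 1024 of 8168 of all tested genes with a window (12.5%). TCACGTGA was found in 6 members (17.6%), 6 other lysosomal genes (18.8%) and 201 of all genes (2.46%), and the CLEAR decamer in none of the members, 1 other lysosomal gene (3.12%) and 68 of all genes (0.833%). The members with CACGTG were Atp6v0d1, Atp6v1a, Ctsa, Ctsd, Ctsf, Ctsl, Gaa, Gla, Glb1, Lamp1, Mcoln1, Naglu and Sgsh, and Lamp1 held it at 4 places within 61 bases of its start. A match describes these letters and is not a bound site. The 13 members with CACGTG had a median log2 difference of 0.33 between Cbfa2t2_KO and H3.3WT, and the 21 without it had 0.34. Between H3.3K27M and H3.3WT these medians were 0.04 with CACGTG and -0.16 without it, and between H3.3K27M and Cbfa2t2_KO -0.35 with it and -0.38 without it.

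In Cbfa2t2_KO, most of the list stood higher than in H3.3WT. The progranulin gene Grn, its partner Psap, the mitophagy kinase gene Pink1, cathepsins A, B and F, acid alpha-glucosidase and the autophagy genes Wipi1, Ulk1, Becn1, Map1lc3a and Sqstm1 were at 1.43 to 3.19 times the H3.3WT mean. In H3.3K27M no member was called higher, and Grn, Pink1 and Cd63 stood below H3.3WT. In the text, a gene is called higher or lower where its adjusted p from limma on log2(FPKM + 1), corrected over all genes tested, was under 0.05, and log2 differences are given with their standard error (SE) on that scale, which understates the change of low genes. For Cbfa2t2_KO against H3.3WT, 34.6% of 11626 tested genes were called, 13.1% as higher and 21.5% as lower, and of the members 13 of 39 were called higher and 1 lower (35.9%). For H3.3K27M against H3.3WT, 26.2% of 11623 genes were called, 8.42% as higher and 17.8% as lower, and of the members none were called higher and 3 lower (7.69%). The median log2 difference over members was 0.34 in Cbfa2t2_KO and -0.10 in H3.3K27M, against -0.11 for Cbfa2t2_KO and -0.12 for H3.3K27M over all tested genes. Both comparisons share the H3.3WT libraries, so their values are not independent of each other. Median-of-ratios scaling brought the medians of all genes to -0.0027 in Cbfa2t2_KO and 0.0053 in H3.3K27M, and the members' medians to 0.46 in Cbfa2t2_KO and 0.05 in H3.3K27M. Calls over all genes then split into 2091 higher and 2044 lower for Cbfa2t2_KO, against 1528 and 2500 with the values as deposited, and into 1386 higher and 1424 lower for H3.3K27M, against 979 and 2070. The members' calls split into 19 higher and 1 lower for Cbfa2t2_KO and into 1 higher, Atp6v1a, and none lower for H3.3K27M.

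**Figure D1:**
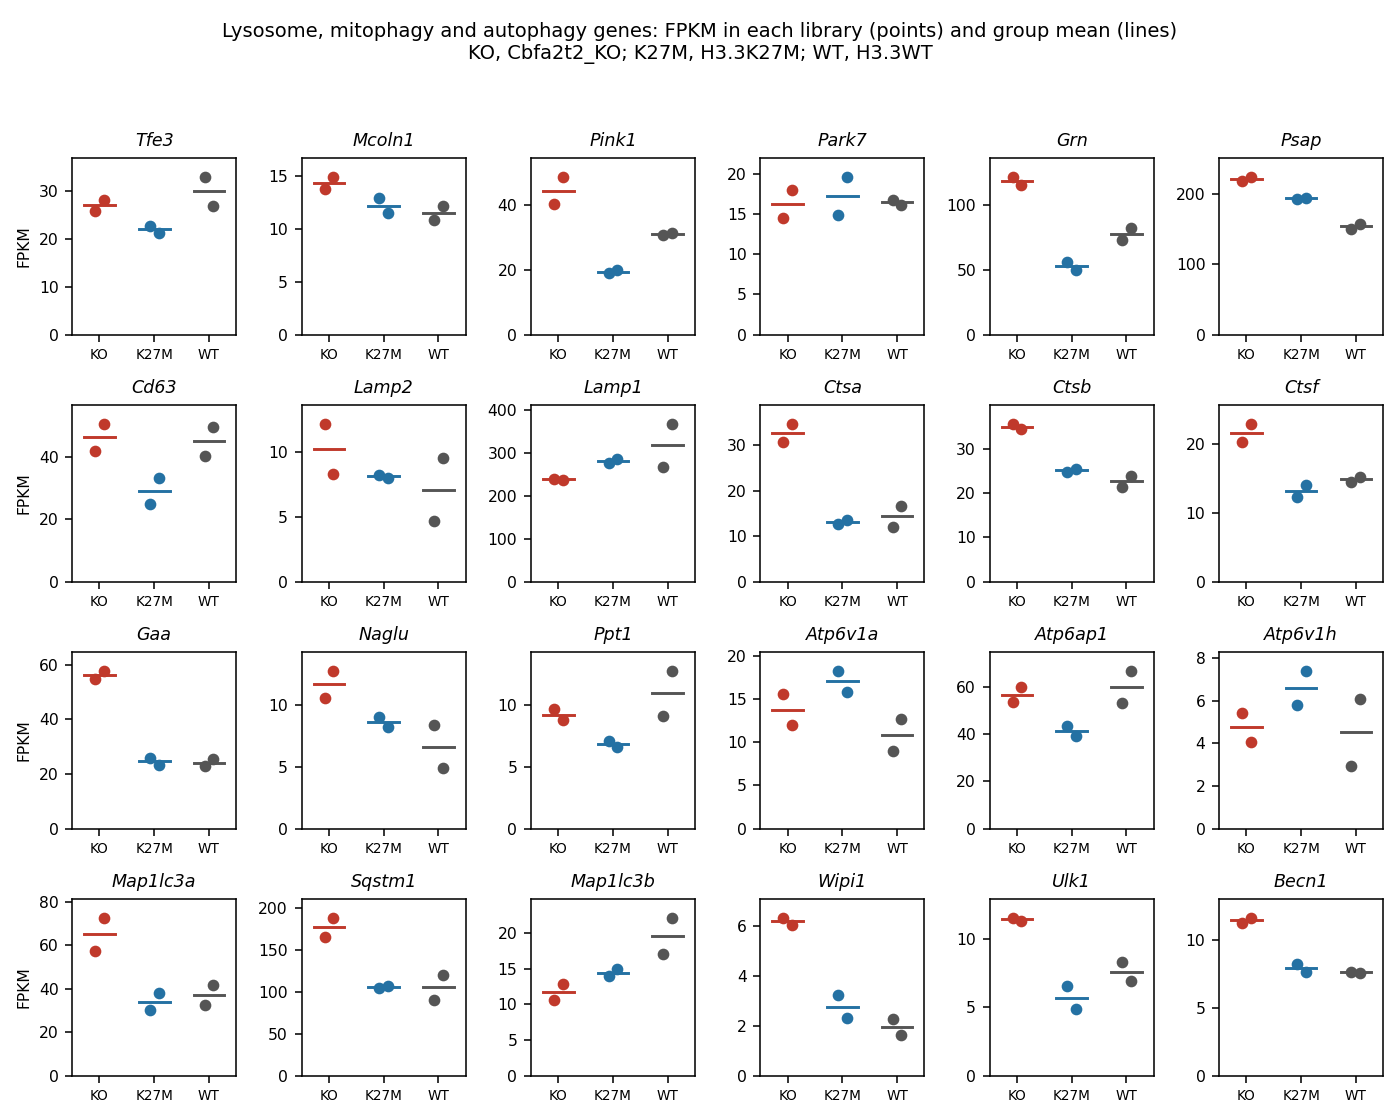
FPKM of 24 named members in each library (points) with the mean of each group (lines); KO is Cbfa2t2_KO, K27M is H3.3K27M, WT is H3.3WT, and every axis starts at 0. Both Cbfa2t2_KO points of Gaa, Ctsa and Wipi1 lie well above the other 4 points, and Grn and Pink1 separate the 3 groups in the order Cbfa2t2_KO, H3.3WT, H3.3K27M.

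Among the regulators of lysosomal gene expression, Tfeb was near the floor of the tables, with 0.296 and 0.460 FPKM in Cbfa2t2_KO, 0.178 and 0.230 FPKM in H3.3K27M and 1.32 and 0.993 FPKM in H3.3WT. Its highest values were those of H3.3WT, and it was fitted only in the setting with no minimum FPKM. Tfe3 (ENSMUSG00000000134, on the forward strand of GRCm38 chromosome X from 7762560 to 7775202, with at most 10 exons per transcript), which encodes a relative of TFEB, had 25.9 and 28.2 FPKM in Cbfa2t2_KO, 22.7 and 21.3 FPKM in H3.3K27M and 33.04 and 26.9 FPKM in H3.3WT, with log2 differences of -0.14 ± 0.15 for Cbfa2t2_KO and -0.42 ± 0.17 for H3.3K27M. Neither was called, and the H3.3K27M libraries lay below all others. Mcoln1, which encodes the lysosomal calcium channel TRPML1, had 13.8 and 14.98 FPKM in Cbfa2t2_KO, 12.97 and 11.5 FPKM in H3.3K27M and 10.9 and 12.2 FPKM in H3.3WT. Its differences of 0.30 ± 0.15 in Cbfa2t2_KO and 0.08 ± 0.18 in H3.3K27M were also not called. In Cbfa2t2_KO, where most of the list stood higher, Tfeb thus lay below H3.3WT and Tfe3 overlapped it.

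Pink1 (ENSMUSG00000028756, on the reverse strand of GRCm38 chromosome 4 from 138313409 to 138326307, with at most 9 exons per transcript) encodes a kinase that accumulates on depolarised mitochondria and recruits Parkin. It had 40.1 and 48.6 FPKM in Cbfa2t2_KO, 18.99 and 19.7 FPKM in H3.3K27M and 30.5 and 31.3 FPKM in H3.3WT. The 3 groups did not overlap: both Cbfa2t2_KO libraries were the highest and both H3.3K27M libraries the lowest. The Cbfa2t2_KO mean was 1.43 times that of H3.3WT (log2 0.50 ± 0.15, called higher), and the H3.3K27M mean was 0.626 times it (log2 -0.65 ± 0.16, called lower). The call in Cbfa2t2_KO was lost in 3 of the 4 fits that left out a library, all but that without Cbfa2t2_KO replicate 1. The call in H3.3K27M was lost with median-of-ratios scaling and with quantile normalization, and in every fit that left out a library except that without H3.3K27M replicate 1. Park7, which encodes the Parkinson protein DJ-1, had 14.5 and 17.9 FPKM in Cbfa2t2_KO, 14.9 and 19.6 FPKM in H3.3K27M and 16.7 and 16.2 FPKM in H3.3WT. Those values overlapped in every pair of groups, and the log2 differences were -0.02 ± 0.16 in Cbfa2t2_KO and 0.06 ± 0.19 in H3.3K27M.

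Grn (ENSMUSG00000034708, on the forward strand of GRCm38 chromosome 11 from 102430315 to 102437048, with at most 13 exons per transcript) encodes progranulin, a secreted and lysosomal protein whose partial loss causes frontotemporal dementia in people. It had 122 and 115 FPKM in Cbfa2t2_KO, 56.3 and 50.1 FPKM in H3.3K27M and 72.97 and 82.3 FPKM in H3.3WT. Again no group overlapped another, with Cbfa2t2_KO highest and H3.3K27M lowest. The mean in Cbfa2t2_KO was 1.52 times that in H3.3WT (log2 0.60 ± 0.13, called higher), and the mean in H3.3K27M was 0.686 times it (log2 -0.54 ± 0.17, called lower). The second of these calls held in 3 of 13 alternative settings, and its log2 difference ran from -0.62 to -0.38 over them. Psap, which encodes prosaposin, the precursor of the saposins and a carrier of progranulin to lysosomes, had 218 and 225 FPKM in Cbfa2t2_KO, 193 and 194 FPKM in H3.3K27M and 151 and 157 FPKM in H3.3WT. Here Cbfa2t2_KO was also highest, but H3.3K27M lay above H3.3WT. Its log2 differences were 0.52 ± 0.13 for Cbfa2t2_KO, called higher, and 0.33 ± 0.17 for H3.3K27M, not called.

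Of the 3 lysosomal membrane proteins, none was called in Cbfa2t2_KO. Cd63, a tetraspanin of late endosomes and exosomes, had 42.04 and 50.8 FPKM in Cbfa2t2_KO, 24.9 and 33.3 FPKM in H3.3K27M and 40.5 and 49.9 FPKM in H3.3WT. Both H3.3K27M libraries lay below the others, a log2 difference of -0.63 ± 0.20 that was called lower, while Cbfa2t2_KO overlapped H3.3WT (0.04 ± 0.16). The Cd63 call held in 3 of 13 alternative settings. Lamp1, the most abundant lysosomal membrane glycoprotein gene of the list, had 240.2 and 237 FPKM in Cbfa2t2_KO, 278 and 285 FPKM in H3.3K27M and 268 and 368 FPKM in H3.3WT, with log2 differences of -0.39 ± 0.17 in Cbfa2t2_KO and -0.16 ± 0.21 in H3.3K27M. The 2 H3.3WT libraries of Lamp1 were far apart, and those of Lamp2, with 4.69 and 9.51 FPKM, had the largest gap of all members between libraries of 1 group. Lamp2, which also serves chaperone-mediated autophagy, had 12.2 and 8.31 FPKM in Cbfa2t2_KO and 8.27 and 8.02 FPKM in H3.3K27M, and log2 differences of 0.52 ± 0.30 in Cbfa2t2_KO and 0.24 ± 0.28 in H3.3K27M.

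Of the 8 lysosomal proteases, 3 were called higher in Cbfa2t2_KO and none lower, and none was called in H3.3K27M. Ctsa (ENSMUSG00000017760, on the forward strand of GRCm38 chromosome 2 from 164832873 to 164841032, with at most 16 exons per transcript) encodes cathepsin A, a carboxypeptidase that also protects the sialidase NEU1 and beta-galactosidase from degradation. It had 30.7 and 34.8 FPKM in Cbfa2t2_KO, 12.6 and 13.6 FPKM in H3.3K27M and 12.1 and 16.6 FPKM in H3.3WT. Both Cbfa2t2_KO libraries lay above the other 4, at 2.28 times the H3.3WT mean (log2 1.15 ± 0.18), while H3.3K27M overlapped H3.3WT (log2 -0.11 ± 0.20). Ctsb, a cysteine protease gene, had 35.6 and 34.4 FPKM in Cbfa2t2_KO, 24.9 and 25.3 FPKM in H3.3K27M and 21.5 and 23.9 FPKM in H3.3WT. Its Cbfa2t2_KO libraries were again the 2 highest, with a log2 difference of 0.61 ± 0.14, and H3.3K27M differed by 0.14 ± 0.16. Ctsf, another cysteine protease gene, had 20.2 and 22.96 FPKM in Cbfa2t2_KO, 12.3 and 14.01 FPKM in H3.3K27M and 14.5 and 15.2 FPKM in H3.3WT, with 0.51 ± 0.15 for Cbfa2t2_KO and -0.17 ± 0.17 for H3.3K27M. The other 5 proteases, Ctsl, Tpp1, Ctsz, Ctsd and Ctsc, had log2 differences from -0.10 to 0.42 in Cbfa2t2_KO and from -0.22 to 0.16 in H3.3K27M. Ctsd, for the aspartic protease cathepsin D, was the most abundant member, with 348 and 359 FPKM in Cbfa2t2_KO, 238 and 255 FPKM in H3.3K27M and 246 and 336 FPKM in H3.3WT. Its H3.3WT libraries were far apart, and Gm49369, a gene model on the same strand that shares 34.4% of its exonic bases, was at 11.5 FPKM in one of them and at 0 in the other.

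Among 9 tested glycosidases and other hydrolases, 2 were called higher in Cbfa2t2_KO and none in H3.3K27M. Gaa (ENSMUSG00000025579, on the forward strand of GRCm38 chromosome 11 from 119267887 to 119285454, with at most 20 exons per transcript) encodes acid alpha-glucosidase, which breaks down lysosomal glycogen and is lost in Pompe disease. It had 54.8 and 57.9 FPKM in Cbfa2t2_KO, 26.02 and 23.2 FPKM in H3.3K27M and 22.8 and 25.6 FPKM in H3.3WT. Cbfa2t2_KO stood alone at 2.33 times the H3.3WT mean (log2 1.19 ± 0.14), and H3.3K27M overlapped H3.3WT (log2 0.02 ± 0.17). Naglu, which acts on heparan sulfate, had 10.5 and 12.8 FPKM in Cbfa2t2_KO, 9.04 and 8.20 FPKM in H3.3K27M and 8.38 and 4.88 FPKM in H3.3WT. The Cbfa2t2_KO libraries were above all others, and the 2 H3.3WT libraries were widely spread. The log2 differences of Naglu were 0.76 ± 0.24 in Cbfa2t2_KO, called higher, and 0.37 ± 0.24 in H3.3K27M. Ppt1, which removes palmitate from proteins and is mutated in infantile neuronal ceroid lipofuscinosis, had 9.70 and 8.79 FPKM in Cbfa2t2_KO, 7.13 and 6.65 FPKM in H3.3K27M and 9.11 and 12.8 FPKM in H3.3WT, lowest in H3.3K27M (-0.58 ± 0.21) and not called in either line (-0.21 ± 0.19 in Cbfa2t2_KO). Neu1, Man2b1, Gla, Sgsh, Glb1 and Gusb, which encode a sialidase, a mannosidase, a galactosidase, a sulfamidase, beta-galactosidase and beta-glucuronidase, had log2 differences from -0.03 to 0.46 in Cbfa2t2_KO and from -0.33 to 0.27 in H3.3K27M. None of them was called.

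The 5 V-ATPase members were not called in either line. Atp6v1a, the catalytic subunit of the cytosolic domain, had 15.6 and 11.98 FPKM in Cbfa2t2_KO, 18.3 and 15.8 FPKM in H3.3K27M and 9.03 and 12.7 FPKM in H3.3WT. H3.3K27M was highest there (0.62 ± 0.20), Cbfa2t2_KO overlapped H3.3WT (0.33 ± 0.21), and Atp6v1a was called higher in H3.3K27M with the values scaled by median of ratios. Atp6ap1, an accessory subunit, had 53.9 and 59.9 FPKM in Cbfa2t2_KO, 43.8 and 39.2 FPKM in H3.3K27M and 53.5 and 67.04 FPKM in H3.3WT, with H3.3K27M lowest (-0.52 ± 0.18) and a difference of -0.08 ± 0.15 in Cbfa2t2_KO. Atp6v1h, a regulatory subunit, had 5.42 and 4.06 FPKM in Cbfa2t2_KO, 5.80 and 7.40 FPKM in H3.3K27M and 2.93 and 6.10 FPKM in H3.3WT, and its H3.3WT values spanned those of Cbfa2t2_KO (0.11 ± 0.28 in Cbfa2t2_KO and 0.52 ± 0.28 in H3.3K27M). Atp6v0d1 and Atp6v1b2 had differences of 0.19 ± 0.14 and -0.47 ± 0.17 in Cbfa2t2_KO and of 0.29 ± 0.17 and -0.27 ± 0.19 in H3.3K27M.

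Of the ATG8 genes and their cargo receptor, members of the LC3 family differed in opposite directions in Cbfa2t2_KO. Map1lc3a had 57.3 and 72.7 FPKM in Cbfa2t2_KO, 30.03 and 37.8 FPKM in H3.3K27M and 32.7 and 41.9 FPKM in H3.3WT, so that Cbfa2t2_KO was above all other libraries (0.79 ± 0.18, called higher) and H3.3K27M overlapped H3.3WT (-0.13 ± 0.19). Map1lc3b, which encodes the LC3 form most used as a marker of autophagosomes, had 10.7 and 12.9 FPKM in Cbfa2t2_KO, 13.9 and 14.9 FPKM in H3.3K27M and 17.1 and 22.2 FPKM in H3.3WT. The 3 groups did not overlap, with H3.3WT highest and Cbfa2t2_KO lowest, and it was the 1 member called lower in Cbfa2t2_KO (-0.68 ± 0.18; -0.41 ± 0.19 in H3.3K27M, not called). Sqstm1 (ENSMUSG00000015837, on the reverse strand of GRCm38 chromosome 11 from 50199366 to 50210827, with at most 8 exons per transcript) encodes p62, which links ubiquitinated cargo to ATG8 proteins. It had 165 and 189 FPKM in Cbfa2t2_KO, 104 and 107 FPKM in H3.3K27M and 90.99 and 119.7 FPKM in H3.3WT, with both Cbfa2t2_KO libraries highest (0.75 ± 0.17, called higher) and H3.3K27M between the 2 H3.3WT libraries (0.02 ± 0.19). Gabarapl1 and Gabarapl2 were not called, with 0.14 ± 0.13 and 0.34 ± 0.14 in Cbfa2t2_KO and -0.36 ± 0.17 and 0.34 ± 0.17 in H3.3K27M.

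All 3 genes of autophagy initiation were called higher in Cbfa2t2_KO, and none was called in H3.3K27M. Wipi1 (ENSMUSG00000041895, on the reverse strand of GRCm38 chromosome 11 from 109573331 to 109611967, with at most 13 exons per transcript) encodes a phosphoinositide-binding protein of the forming autophagosome. It had 6.35 and 6.05 FPKM in Cbfa2t2_KO, 3.23 and 2.32 FPKM in H3.3K27M and 2.26 and 1.62 FPKM in H3.3WT. The 3 groups did not overlap, and Cbfa2t2_KO stood at 3.19 times the H3.3WT mean (log2 1.30 ± 0.19), against a log2 difference of 0.36 ± 0.21 in H3.3K27M. Ulk1, the kinase that starts autophagy, had 11.6 and 11.3 FPKM in Cbfa2t2_KO, 6.55 and 4.88 FPKM in H3.3K27M and 8.30 and 6.92 FPKM in H3.3WT, with differences of 0.54 ± 0.16 in Cbfa2t2_KO and -0.37 ± 0.21 in H3.3K27M. Its Cbfa2t2_KO libraries were the highest and its H3.3K27M libraries the lowest. Becn1, a subunit of the phosphoinositide kinase complex that acts next, had 11.3 and 11.6 FPKM in Cbfa2t2_KO, 8.25 and 7.62 FPKM in H3.3K27M and 7.65 and 7.58 FPKM in H3.3WT. The Becn1 difference was 0.53 ± 0.15 in Cbfa2t2_KO and 0.05 ± 0.18 in H3.3K27M.

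**Figure D2:**
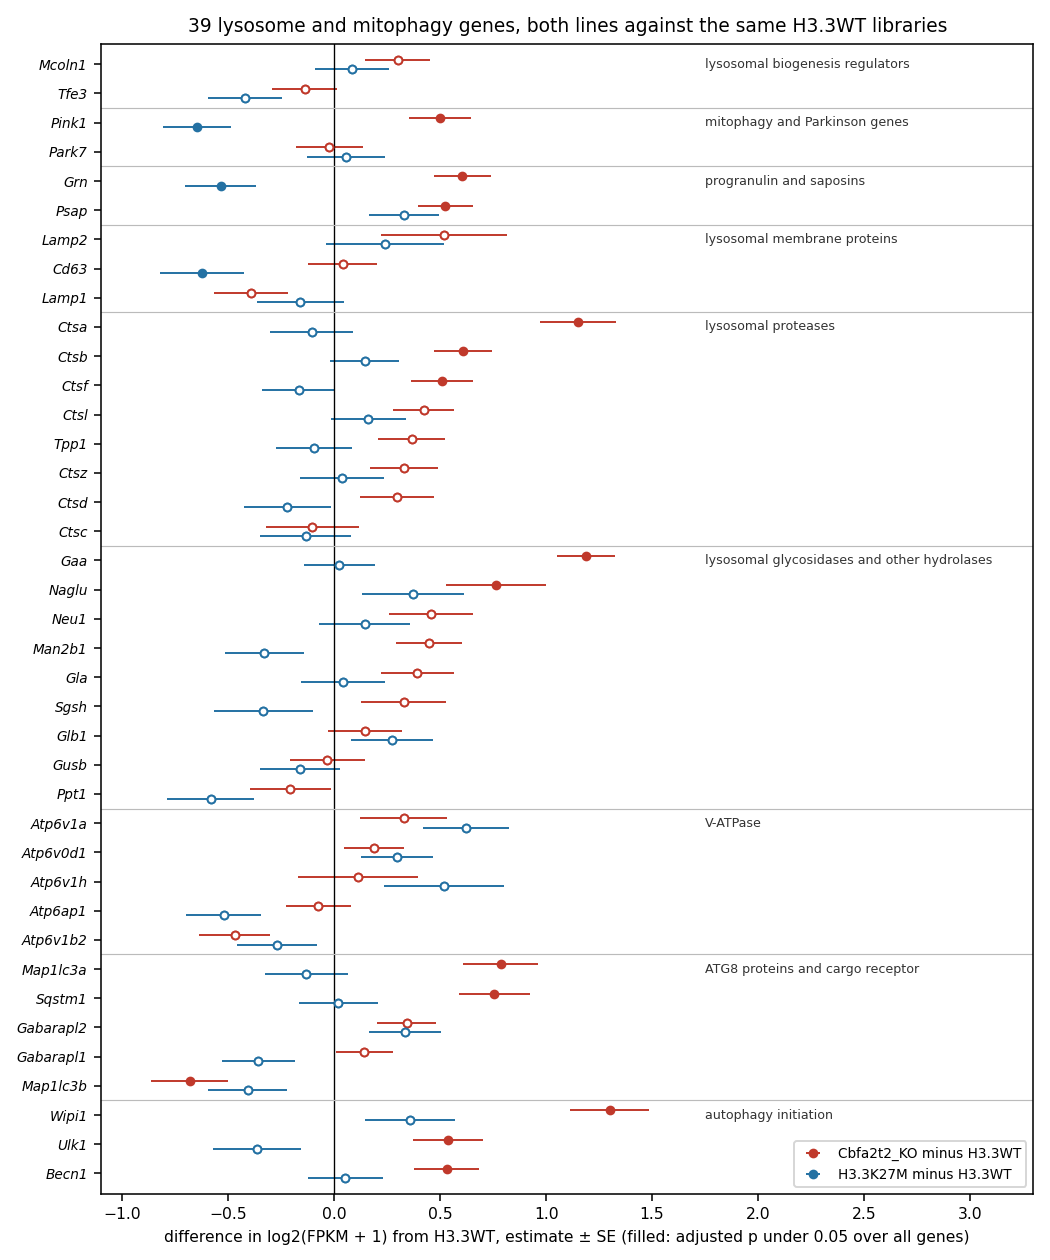
Difference from H3.3WT in log2(FPKM + 1), estimate ± SE, for 39 members grouped by role, in Cbfa2t2_KO (red, upper) and H3.3K27M (blue, lower); filled points were called over all genes, open points were not. The red points of Wipi1, Gaa and Ctsa lie past 1, and the filled blue points are those of Pink1, Grn and Cd63.

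Of the calls in Cbfa2t2_KO, those of Ctsa, Gaa and Wipi1 held in every alternative setting in which the gene was tested (13, 13 and 12). The other 11 calls were each lost in 2 to 5 of 13 settings, and every one of them was lost without Cbfa2t2_KO replicate 2. The 14 calls became 6 without Cbfa2t2_KO replicate 1, 3 without Cbfa2t2_KO replicate 2, 7 without H3.3WT replicate 1 and 9 without H3.3WT replicate 2. The 3 calls in H3.3K27M became 2 without H3.3K27M replicate 1, 1 without H3.3K27M replicate 2 and none without either H3.3WT library. Members just inside and just outside the threshold were close in size: in Cbfa2t2_KO, Naglu and Ulk1, called, had 0.76 ± 0.24 and 0.54 ± 0.16, and Ctsl and Man2b1, not called, had 0.42 ± 0.14 and 0.45 ± 0.16. Counting libraries alone, 25 of 39 members were higher in both Cbfa2t2_KO libraries than in either H3.3WT library and 3 were lower, where all genes gave 28.5% and 42% (70.4% in either direction). In H3.3K27M these counts were 7 and 12, where all genes gave 25.1% and 41.3% (66.3% in either direction).

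Set directly against Cbfa2t2_KO, H3.3K27M had lower levels of most of the list. For this comparison 7.8% of 11601 tested genes were called, 3.12% as higher and 4.68% as lower, and of 39 members 10 were called lower and none higher (25.6%). The median log2 difference was -0.38 over members and -0.02 over all genes, and 29 members were lower in both H3.3K27M libraries than in either Cbfa2t2_KO library, where all genes gave 31.5% (58.2% in either direction). Pink1 had 18.99 and 19.7 FPKM in H3.3K27M, against 40.1 and 48.6 FPKM in Cbfa2t2_KO, a mean of 0.437 times that of Cbfa2t2_KO (log2 -1.15 ± 0.15). Grn had 56.3 and 50.1 FPKM in H3.3K27M, against 122 and 115 FPKM in Cbfa2t2_KO, 0.450 times (log2 -1.14 ± 0.15). The hydrolase genes Ctsa and Gaa stood at 0.400 and 0.437 times the Cbfa2t2_KO mean, with log2 differences of -1.26 ± 0.18 and -1.16 ± 0.15.

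The other 6 members called lower came from several steps of the pathway. Wipi1, Ulk1, Map1lc3a and Sqstm1, of autophagy, had log2 differences of -0.94 ± 0.20, -0.90 ± 0.19, -0.92 ± 0.19 and -0.74 ± 0.17. Man2b1, for lysosomal alpha-mannosidase, had 10.1 and 8.59 FPKM in H3.3K27M, against 16.8 and 16.6 FPKM in Cbfa2t2_KO (log2 -0.78 ± 0.17), although neither line had been called against H3.3WT. Ctsf had -0.68 ± 0.16. Cd63 and Gabarapl1, just outside the threshold, had -0.67 ± 0.19 and -0.50 ± 0.15. The members above 0 were Atp6v1h, Atp6v1a, Map1lc3b, Lamp1, Atp6v1b2, Glb1, Atp6v0d1 and Park7, from 0.08 to 0.41, which include 4 of the 5 V-ATPase subunits. The 10 calls became 4 without Cbfa2t2_KO replicate 1, none without Cbfa2t2_KO replicate 2, 7 without H3.3K27M replicate 1 and 4 without H3.3K27M replicate 2. Without Cbfa2t2_KO replicate 2, 29 genes were called in all, against 905 with it.

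**Figure D3:**
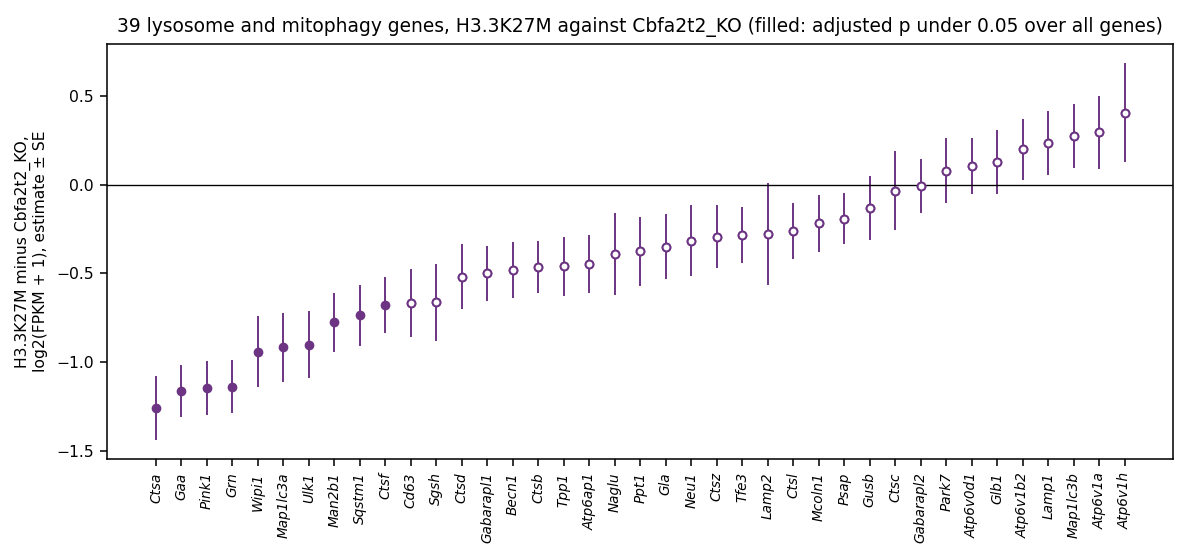
Difference between H3.3K27M and Cbfa2t2_KO in log2(FPKM + 1), estimate ± SE, for 39 members in order of size; filled points were called over all genes. Ctsa, Gaa, Pink1 and Grn lie lowest, below -1, and 31 of the 39 points lie below 0.

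The members were spread over the genome unevenly. Chromosome 11 held 7 of the 39 tested members, Grn, Gaa, Naglu, Sgsh, Sqstm1, Wipi1 and Becn1, and 8.72% of all tested genes. Of those 7, 6 were called higher in Cbfa2t2_KO, against 7 of 32 on other chromosomes. Chromosome 11 as a whole also differed between the lines. Its 1014 tested genes had a median log2 difference of 0.16 between Cbfa2t2_KO and H3.3WT, the highest of chromosomes 1 to 19 and X, and 27.1% of them were called higher, against 13.1% of all genes. Between H3.3K27M and Cbfa2t2_KO its median was -0.40, the lowest of any chromosome, with 20.6% of genes called lower, against 4.68% of all genes. Between H3.3K27M and H3.3WT its median was -0.22. Chromosome 8, which holds Map1lc3b and 6 other members, had a median of -0.29 in Cbfa2t2_KO against H3.3WT, with 34.6% of its genes called lower.

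An alternative added after these medians were seen centred the log2 values of each library on each chromosome's median. The members called in Cbfa2t2_KO were then 12, all higher, against 13 higher and 1 lower. The calls of Grn, Naglu, Sqstm1 and Becn1 on chromosome 11 and of Map1lc3b on chromosome 8 were lost, with centred log2 differences of 0.34 ± 0.13, 0.50 ± 0.23, 0.49 ± 0.17, 0.27 ± 0.15 and -0.49 ± 0.18. Gaa and Wipi1, also on chromosome 11, were still called, at 0.92 ± 0.13 and 1.03 ± 0.18, as were Pink1, Psap, Ctsa, Ctsb, Ctsf, Map1lc3a and Ulk1 elsewhere. Mcoln1, Man2b1 and Gabarapl2 were newly called higher. In H3.3K27M against Cbfa2t2_KO, 6 members were called lower after centring, Man2b1, Ctsa, Gaa, Map1lc3a, Pink1 and Grn, with Grn at -0.78 ± 0.15 and Pink1 at -1.07 ± 0.15. Over all genes the count in that comparison fell to 288, against 905 with the values as deposited. What sets chromosome 11 apart, and its part in the members' values, was not tested.

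**Figure D4:**
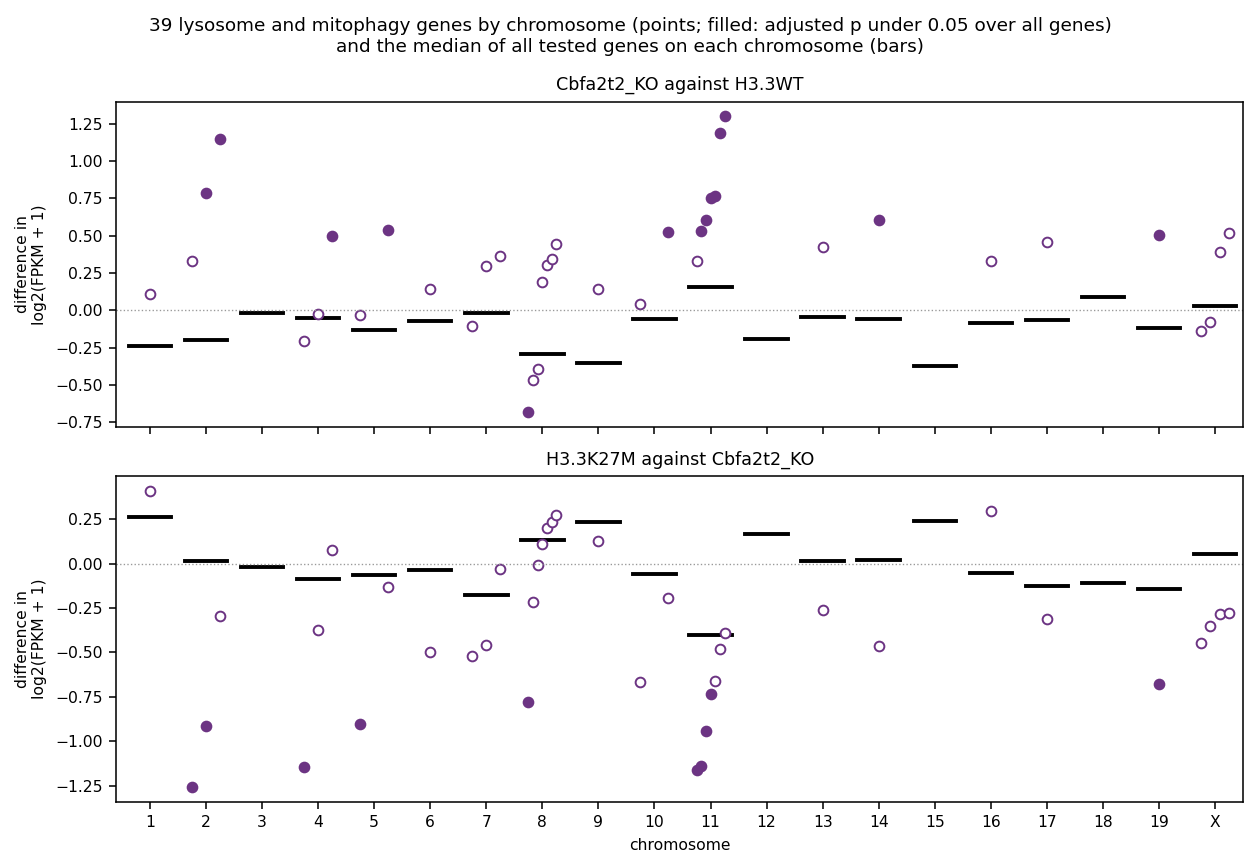
Log2 difference of each member (points, filled where called) and median over all tested genes (bars) by chromosome, for Cbfa2t2_KO against H3.3WT (upper) and H3.3K27M against Cbfa2t2_KO (lower). The bar of chromosome 11 is the highest of the upper panel, at 0.16, and the lowest of the lower panel, at -0.40, and all 7 members there lie on the same side of 0 as that bar in both panels.

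Other genes of the same pathways, from lists by function, were called in both directions. Of 47 other tested lysosomal genes, 7 rose in Cbfa2t2_KO and 4 fell, 14.9% and 8.51% of them, with a median log2 difference of 0.07. All genes gave 13.1% higher and 21.5% lower, so the share that rose was near that of all genes. Ctns, the lysosomal cystine exporter, had 22.7 and 23.8 FPKM in Cbfa2t2_KO, against 9.27 and 7.03 FPKM in H3.3WT (log2 1.42 ± 0.17, adjusted p = 0.0013). Gm2a, an activator protein of ganglioside breakdown, had 13.6 and 14.6 FPKM in Cbfa2t2_KO, against 6.02 and 5.98 FPKM in H3.3WT (log2 1.11 ± 0.16, adjusted p = 0.002). Ctns and Gm2a lie on chromosome 11 and were still called in Cbfa2t2_KO after centring, at 1.15 ± 0.17 and 0.84 ± 0.15. Falls in Cbfa2t2_KO included those of Hyal2, a hyaluronidase (-0.97 ± 0.29, adjusted p = 0.034), Arsa, arylsulfatase A (-0.74 ± 0.16, adjusted p = 0.011), and Pla2g15, a lysosomal phospholipase (-0.69 ± 0.16, adjusted p = 0.016). The Cbfa2t2_KO libraries of Hyal2 were far apart, at 7.87 and 16.7 FPKM, against 23.9 and 23.3 FPKM in H3.3WT. Its log2 difference ran from -1.47 to -0.47 over 13 alternative settings, and its call was lost in 5 of them, with quantile normalization, with chromosome centring and without Cbfa2t2_KO replicate 1, H3.3WT replicate 1 or H3.3WT replicate 2.

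In H3.3K27M, 3 of 48 other lysosomal genes rose and 6 fell (6.25% and 12.5%, against 8.42% and 17.8% of all genes). This split turned round with the scaling, to 5 higher and 1 lower with median of ratios and 6 higher and none lower with quantile normalization. Cln6, an endoplasmic reticulum protein lost in a form of neuronal ceroid lipofuscinosis, had 22.95 and 24.9 FPKM in H3.3K27M, against 14.1 and 10.8 FPKM in H3.3WT (log2 0.90 ± 0.19, adjusted p = 0.011), and the asparaginyl endopeptidase gene Lgmn had 39.3 and 40.99 FPKM in H3.3K27M, against 25.04 and 26.6 FPKM in H3.3WT (log2 0.62 ± 0.16, adjusted p = 0.024). These rises were not particular to H3.3K27M. With the values as deposited, both genes also had an unadjusted p under 0.05 by limma for Cbfa2t2_KO against H3.3WT. After chromosome centring Cln6 and Lgmn were called higher in Cbfa2t2_KO too, at 1.17 ± 0.17 and 0.94 ± 0.13, against 0.89 ± 0.19 and 0.54 ± 0.16 in H3.3K27M. Scarb2, a lysosomal membrane receptor, fell in H3.3K27M (-0.67 ± 0.20, adjusted p = 0.039), a call lost with median-of-ratios scaling and with quantile normalization. Between H3.3K27M and Cbfa2t2_KO, 2 of 47 other lysosomal genes were called higher and 5 lower (4.26% and 10.6%, against 3.12% and 4.68% of all genes).

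Of 13 other V-ATPase genes, none was called in Cbfa2t2_KO by limma, and none had an unadjusted p under 0.05. In H3.3K27M, 1 fell, Atp6v0c, a proteolipid of the membrane domain, with 34.4 and 19.8 FPKM in H3.3K27M, against 40.8 and 55.1 FPKM in H3.3WT (log2 -0.84 ± 0.26, adjusted p = 0.048), a call that held in 2 of 13 alternative settings. None was called by limma between H3.3K27M and Cbfa2t2_KO, where 2 had an unadjusted p under 0.05 as higher and 1 as lower.

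Other autophagy and mitophagy genes were called in both directions in both lines. Of 49, 5 rose and 11 fell in Cbfa2t2_KO (10.2% and 22.4%), and 4 rose and 11 fell in H3.3K27M (8.16% and 22.4%), close to the shares of all genes. The split in Cbfa2t2_KO turned round with the scaling, to 9 higher and 6 lower with median of ratios and 7 higher and 5 lower with quantile normalization. In H3.3K27M it was 4 higher and 8 lower with median of ratios and 4 higher and 7 lower with quantile normalization. Bnip3, a receptor for mitophagy on the outer mitochondrial membrane that hypoxia induces, had 85.1 and 57.2 FPKM in Cbfa2t2_KO, 108 and 136 FPKM in H3.3K27M and 27.9 and 44.1 FPKM in H3.3WT (log2 0.97 ± 0.25, adjusted p = 0.02 for Cbfa2t2_KO and 1.76 ± 0.23, adjusted p = 0.0024 for H3.3K27M). Its relative Bnip3l had 30.2 and 21.2 FPKM in Cbfa2t2_KO, 42.1 and 37.03 FPKM in H3.3K27M and 16.4 and 17.1 FPKM in H3.3WT (log2 0.57 ± 0.18, adjusted p = 0.045 for Cbfa2t2_KO and 1.19 ± 0.16, adjusted p = 0.0027 for H3.3K27M). Optn, a receptor for ubiquitinated mitochondria downstream of PINK1, had 22.7 and 20.95 FPKM in Cbfa2t2_KO, 37.6 and 35.5 FPKM in H3.3K27M and 10.7 and 12.9 FPKM in H3.3WT (log2 0.84 ± 0.16, adjusted p = 0.006 for Cbfa2t2_KO and 1.56 ± 0.17, adjusted p = 0.0014 for H3.3K27M). These 3 mitophagy receptor genes were named for the size of their rise in H3.3K27M, and other receptor genes of the list are not given. The 3 genes were highest in H3.3K27M, the line in which Pink1 was lowest. Whether the receptor genes and Pink1 are related was not tested. Between H3.3K27M and Cbfa2t2_KO directly, Optn was higher (0.72 ± 0.16, adjusted p = 0.032), while Bnip3 (0.79 ± 0.25, adjusted p = 0.085) and Bnip3l (0.62 ± 0.19, adjusted p = 0.072) did not pass. After chromosome centring Optn, Ctns, Gm2a and Mul1 were not called between these lines, with 0.69 ± 0.15, -0.60 ± 0.17, -0.49 ± 0.16 and -0.72 ± 0.19.

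Among the falls, Atg101, a subunit of the ULK1 complex, had 52.6 and 64.5 FPKM in Cbfa2t2_KO, 53.8 and 63.4 FPKM in H3.3K27M and 177 and 208 FPKM in H3.3WT (log2 -1.70 ± 0.16, adjusted p = 0.00062 for Cbfa2t2_KO and -1.70 ± 0.18, adjusted p = 0.0013 for H3.3K27M). Mul1, a mitochondrial ubiquitin ligase, had 14.1 and 13.6 FPKM in Cbfa2t2_KO, 7.90 and 7.32 FPKM in H3.3K27M and 34.1 and 23.9 FPKM in H3.3WT, and the mitochondrial phosphatase gene Pgam5 had 43.5 and 66.03 FPKM in Cbfa2t2_KO, 47.4 and 42.3 FPKM in H3.3K27M and 107 and 99.5 FPKM in H3.3WT. Both fell in both lines, with adjusted p from 0.0016 to 0.0099. Mul1 was also lower in H3.3K27M than in Cbfa2t2_KO (-0.79 ± 0.19, adjusted p = 0.041). Gabarap, an ATG8 gene on chromosome 11, rose in Cbfa2t2_KO (0.86 ± 0.21, adjusted p = 0.018), a call lost after chromosome centring.

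Genes that control mTORC1 and TFEB were called in both directions, 7 higher and 7 lower of 35 in Cbfa2t2_KO (20% each) and 4 higher and 4 lower in H3.3K27M (11.4% each). All genes gave 13.1% higher and 21.5% lower in Cbfa2t2_KO and 8.42% higher and 17.8% lower in H3.3K27M. In H3.3K27M the split became 7 higher and 2 lower with median-of-ratios scaling, 8 higher and 3 lower with quantile normalization and 1 higher and 3 lower with chromosome centring. Depdc5, of the GATOR1 complex that restrains mTORC1, had 10.04 and 9.37 FPKM in Cbfa2t2_KO, against 5.01 and 4.58 FPKM in H3.3WT (log2 0.89 ± 0.16, adjusted p = 0.0058). Wdr24 and Mios, of GATOR2, which opposes GATOR1, fell in Cbfa2t2_KO (-1.08 ± 0.17 and -0.75 ± 0.19, adjusted p = 0.0033 and 0.017), and Wdr24 also in H3.3K27M (-1.51 ± 0.19, adjusted p = 0.002). The 2 sestrin genes moved apart: Sesn1 had 5.82 and 5.02 FPKM in Cbfa2t2_KO, 6.05 and 5.33 FPKM in H3.3K27M and 2.82 and 2.80 FPKM in H3.3WT, and Sesn2 had 59.9 and 61.9 FPKM in Cbfa2t2_KO, 45.9 and 39.7 FPKM in H3.3K27M and 88.8 and 86.6 FPKM in H3.3WT. Sesn1 rose in both lines (adjusted p = 0.014 for Cbfa2t2_KO and 0.016 for H3.3K27M) and Sesn2 fell in both (adjusted p = 0.017 for Cbfa2t2_KO and 0.0045 for H3.3K27M). Rragb, a Rag GTPase gene, rose in both (0.73 ± 0.20, adjusted p = 0.027 in Cbfa2t2_KO and 0.72 ± 0.23, adjusted p = 0.048 in H3.3K27M). Deptor, an inhibitor of mTOR, fell in Cbfa2t2_KO (-0.81 ± 0.21, adjusted p = 0.022). The calcineurin subunit gene Ppp3ca rose in H3.3K27M (0.60 ± 0.17, adjusted p = 0.036), and Lamtor5, of the Ragulator complex, fell there (-0.71 ± 0.17, adjusted p = 0.018). No gene of this list was called by limma between H3.3K27M and Cbfa2t2_KO, where 3 were higher and 6 lower at an unadjusted p under 0.05. Among the list genes chosen by size of change, the calls of Ctns, Gm2a and Depdc5 in Cbfa2t2_KO, of Optn, Atg101, Mul1, Pgam5 and Wdr24 in both lines, and of Bnip3, Bnip3l and Sesn2 in H3.3K27M held in all 13 alternative settings. Each of the other calls of that choice was lost in at least 1 fit that left out a library.

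**Figure D5:**
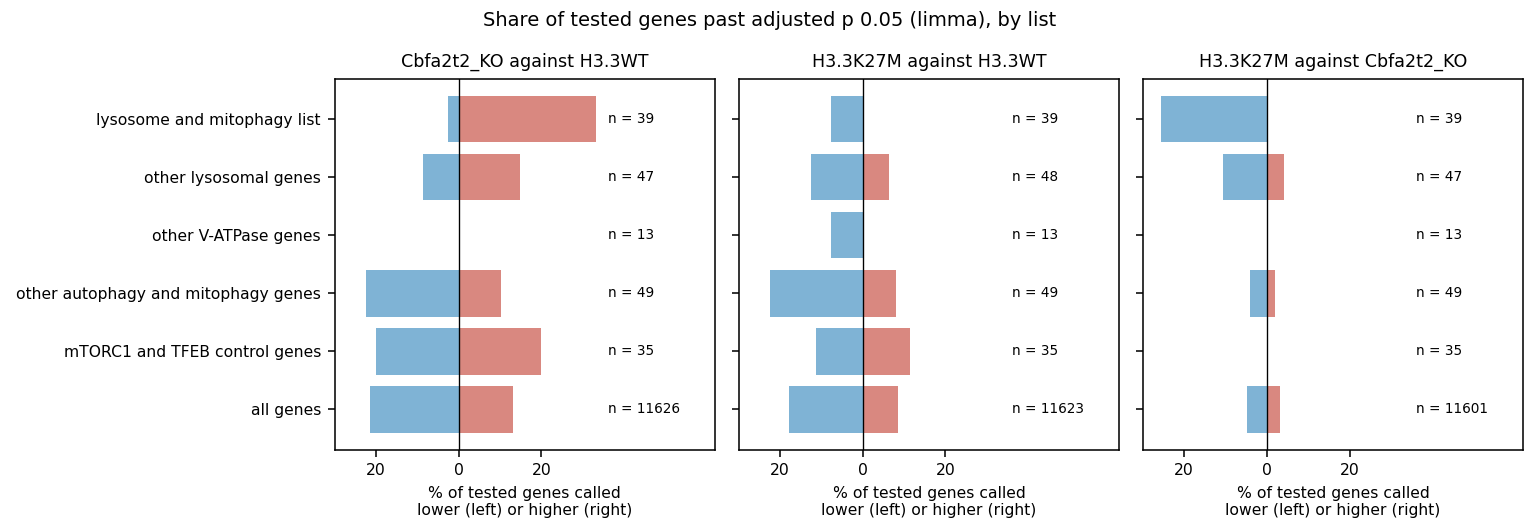
Share of tested genes called higher (red, right) or lower (blue, left) in each comparison, for the lysosome and mitophagy list, 4 other lists and all genes, with the number tested. In Cbfa2t2_KO against H3.3WT the list has 33.3% higher, against 14.9% of other lysosomal genes and 13.1% of all genes; the list was chosen with these values known, so its bars are a description.

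The levels themselves placed the list among the more abundant transcripts. The median member had a mean of 18.4 FPKM over the 6 libraries, against 4.86 FPKM over the 14082 genes, and 6 members had at least 100 FPKM, 22 between 10 and 100 and 12 less than 10. The order by mean level ran from Ctsd (297 FPKM), Lamp1 (279 FPKM), Psap (189.6 FPKM), Ctsz (149.8 FPKM), Sqstm1 (129 FPKM) and Atp6v0d1 (121 FPKM) down to Ctsc (4.38 FPKM), Wipi1 (3.64 FPKM) and Tfeb (0.580 FPKM). Ctsd and Lamp1, neighbours at the top, overlapped across libraries. Libraries of the same group differed for the median member by 0.13 on the log2 scale in Cbfa2t2_KO, 0.16 in H3.3K27M and 0.29 in H3.3WT, so the members were spread most in H3.3WT, where the median of all tested genes was 0.17. The members' transcripts had a median GC content of 52.2% and a median length of 2889 bases, against 50.7% and 3025 bases over all tested genes.

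The strand of the libraries is not stated, so reads from overlapping genes on opposite strands cannot be told apart. In the annotation, 43.9% of the exonic bases of Becn1 overlap Cntd1, 17.3% of Sqstm1 overlap Mrnip, 12.8% of Ctsb overlap Fdft1 and 10.5% of Ctsa overlap Pltp, all on the opposite strand. Fdft1, of cholesterol synthesis, had 38.1 and 39.5 FPKM in Cbfa2t2_KO, against 23.6 and 19.99 FPKM in H3.3WT, a difference in the same direction as that of Ctsb. Cntd1 had 2.40 and 1.78 FPKM in Cbfa2t2_KO, against 0.787 and 0.787 FPKM in H3.3WT, also in the direction of Becn1. Mrnip went the other way from Sqstm1, with 12.9 and 15.2 FPKM in Cbfa2t2_KO, against 36.8 and 33.6 FPKM in H3.3WT. Grn shares 1.96% of its exonic bases with Fam171a2, and Pink1 and Gaa overlap no protein-coding gene.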

How the data were processed

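RNA of 6 libraries, 2 for each of 3 lines, was measured by RNA-seq. FPKM are the authors' deposited values, in 2 tables with the H3.3WT libraries in both. The H3.3K27M columns were assigned to that line from the letter M in their names, which give no sample. Replicate numbers of H3.3K27M follow the order of those columns. Per the submitters' processing notes, Trim Galore, HISAT2, StringTie and DESeq were used with build GRCm38, with no versions given in the sources used here. FPKM keep no read depth: at most 18.9% of low values lay at ratios of whole numbers (tolerance 0.01 in the natural log), so no count test was run, and no counting interval is given. Every listed gene had at least 0.500 FPKM in 1 library.

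The test was limma 3.58.1 (R 4.3.3) on log2(FPKM + 1), for genes that averaged 1 FPKM or more over the libraries of a fit (moderated with a trend, Benjamini-Hochberg adjustment over all genes, threshold 0.05). Fits against H3.3WT used the 4 libraries of 1 table, and the direct fit between H3.3K27M and Cbfa2t2_KO used all 6. On simulated data, 96.5%, 85% and 91.5% of 200 genes changed 2-fold were recovered for Cbfa2t2_KO against H3.3WT, H3.3K27M against H3.3WT and H3.3K27M against Cbfa2t2_KO. False calls were 42 of 235, 11 of 181 and 20 of 203, a larger share than the threshold of 0.05 in each. The simulation drew independent noise and changed far fewer genes than the 4028, 3049 and 905 called in the data. Its recovery therefore does not measure how reliable those calls are.

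The members and lists were chosen with earlier results of these data known. Values in every library are given for Grn, Pink1 and, per role, the up to 3 members with the largest change from H3.3WT in either line, if the higher group reached 2 FPKM. From each other list, up to 3 called genes per direction and comparison were named by size, with groups that do not overlap and the same minimum; other named genes were chosen after their values were seen. Alternatives covered the pseudocount, the minimum, 2 scalings, the trend, GC and length, the libraries fitted and each library left out, and chromosome centring was added after seeing the data. Gene positions are from GENCODE vM21 and promoters from RefSeq GRCm38.p6. Trp53 and Hexa are not analysed here, and some genes of the other lists are counted but not named. Figures were drawn with Python 3.11.15 and matplotlib 3.10.9.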

Additional observations from a re-analysis of the deposited data

Results flagged for a closer look

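Members and list genes that differed between H3.3K27M and Cbfa2t2_KO directly, by limma on log2(FPKM + 1) over all genes in the fit of 6 libraries, are given here by their log2 difference. This comparison tests whether the differences of both lines from H3.3WT are unequal, and 7.8% of all genes passed it. For members the values are a description. Pink1 and Grn, both lower in H3.3K27M, had -1.15 and -1.14. Ctsa, Gaa, Man2b1 and Ctsf, of lysosomal breakdown, had -1.26, -1.16, -0.78 and -0.68. Wipi1, Map1lc3a, Ulk1 and Sqstm1, of autophagy, had -0.94, -0.92, -0.90 and -0.74. Among genes of the other lists, Ctns and Gm2a were lower by this test, at -0.96 and -0.85, and both lie on chromosome 11. Mul1 was lower, at -0.79, and Optn higher, at 0.72. Groups of 2 libraries are too small to look for a single library that stands apart.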

How the results depend on the processing

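No called member changed sign in any alternative, nor did the list genes chosen by size of change in their called comparisons with H3.3WT. Signs of other called genes were not followed. The members' median in H3.3K27M against H3.3WT, -0.10 as deposited, was 0.05 with median-of-ratios scaling and 0.02 with quantile normalization, and splits of calls that turned round with the scaling stand in the report. Leaving out 1 library at a time gave, for Cbfa2t2_KO against H3.3WT, 1915 to 3038 genes (4028 with all libraries), 3 to 9 members (14), 6 to 9 other lysosomal (11), 0 to 1 other V-ATPase (0), 6 to 8 other autophagy and mitophagy (16) and 4 to 8 mTORC1 and TFEB control genes (14). For H3.3K27M against H3.3WT it gave 1007 to 2790 genes (3049), 0 to 2 members (3), 1 to 4 other lysosomal (9), 0 to 2 other V-ATPase (1), 7 to 17 other autophagy and mitophagy (15) and 2 to 6 mTORC1 and TFEB control genes (8). For H3.3K27M against Cbfa2t2_KO it gave 29 to 786 genes (905), 0 to 7 members (10), 0 to 4 other lysosomal (7), 0 to 1 other V-ATPase (0), 0 to 3 other autophagy and mitophagy (3) and 0 to 3 mTORC1 and TFEB control genes (0). These fits have fewer samples.

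Members called in H3.3K27M against H3.3WT were 1 with a pseudocount of 0.1, with median-of-ratios scaling, with quantile normalization or without the trend, and 6 with all 6 libraries in 1 fit. The other V-ATPase genes called there were 0 under each of those settings, with no minimum FPKM and with chromosome centring, and 3 with correction for GC and length. That correction also gave 1 other V-ATPase gene in Cbfa2t2_KO against H3.3WT and, for H3.3K27M against Cbfa2t2_KO, 2 other V-ATPase, 7 other autophagy and mitophagy and 1 mTORC1 and TFEB control gene. Chromosome centring, chosen after seeing the data, gave 4 mTORC1 and TFEB control genes in H3.3K27M against H3.3WT and, for H3.3K27M against Cbfa2t2_KO, 288 genes, 6 members, 1 other lysosomal and 0 other autophagy and mitophagy genes. Beyond fewer samples, the cause was not tested. Of the values of single members, 103 moved by more than the spread between replicates and 1372 did not. With 2 libraries a group and unknown depth, a call that was missed does not show that a gene did not differ. No paired analysis was possible because the labels do not tie libraries of different lines to a shared culture or batch.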
